A study of Mus musculus with 36 samples.

Results

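SAHA was compared with vehicle in the hippocampus (HIP) of male mice labelled C57BL/6J. SAHA (vorinostat) is a hydroxamic acid that binds the zinc in the active site of histone deacetylases (HDACs). HDACs remove acetyl groups from lysines of histones and of other proteins such as tubulin, and their inhibition leaves chromatin more acetylated, after which transcripts can go up or down. In the hippocampus these enzymes are studied for their part in memory and mood-related behavior, and the tissue holds pyramidal and granule neurons, interneurons, astrocytes, microglia, vessels and the oligodendrocytes that make myelin.

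The comparison rests on 6 of the 36 arrays of the series, chosen by their labels alone: 3 SAHA arrays (25 mg/kg) and 3 vehicle arrays, each holding HIP RNA pooled from 2 mice, so 6 mice per group. According to the methods, which call the mice C57BL/6, they were bought at 10 weeks of age from a pair of suppliers, acclimated for 1 week and injected i.p. once daily for 10 days, and brains were taken 1 h after the last injection. Both groups received the same DMSO, PEG-400 and saline mixture, and neither carried a genetic change. No source names the supplier of any pool, and pooling leaves 3 values per group, so the p-values measure the spread between pools. The other inhibitors of the series, Cpd-60 and CI-994, enter only where stated.

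Biotin-labelled cRNA was hybridized to Illumina whole-genome bead arrays that report a raw intensity and a detection p-value for 45281 probes. A probe was tested if its detection p was at most 0.2 on all 3 arrays of at least 1 of the vehicle, SAHA and Cpd-60 groups, which left 22275 probes for 15154 genes. Values below are log2 intensities after quantile normalization, and a change is the SAHA mean minus the vehicle mean on that scale. The tissue label was checked with marker lists: 6 of 9 dentate granule cell genes, 4 of 10 CA1 genes and 5 of 15 CA2 and CA3 genes were higher on all 6 HIP arrays than on every vehicle and SAHA array of the prefrontal cortex (PFC) and nucleus accumbens (NAc), against 0 of 11 striatal and 1 of 11 cortical genes.

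The SAHA arrays were dimmer than the vehicle arrays. The 95th percentile of raw intensity was 840, 794 and 686 in vehicle pools 1, 2 and 3, and 665, 438 and 452 in SAHA pools 1, 2 and 3. All 3 SAHA arrays therefore lay below all 3 vehicle arrays, by little for SAHA pool 1 and by much for SAHA pools 2 and 3 (518 ± 127 against 774 ± 78.7, mean ± SD, n = 3 per group, exact two-sided permutation test p = 0.1, the smallest that 3 against 3 allows). The share of probes detected at p of at most 0.01 was 38.0% to 39.7% on the vehicle arrays and 34.3%, 32.1% and 32.3% on the SAHA arrays. In the brightest of 5 equal bins of tested probes, the raw log2 intensity of SAHA pools 1, 2 and 3 was lower than the vehicle mean by a median of -0.22, -0.79 and -0.75, and normalization brought the median change there to -0.0028. The arrays also lay on different BeadChips: vehicle pools 1 and 2 and SAHA pool 1 were on the first, and vehicle pool 3 and SAHA pools 2 and 3 on the second. SAHA pool 1 was thus the brightest of its group and the only one on the first BeadChip, so its values are given separately for the main results.

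**Figure D1:**
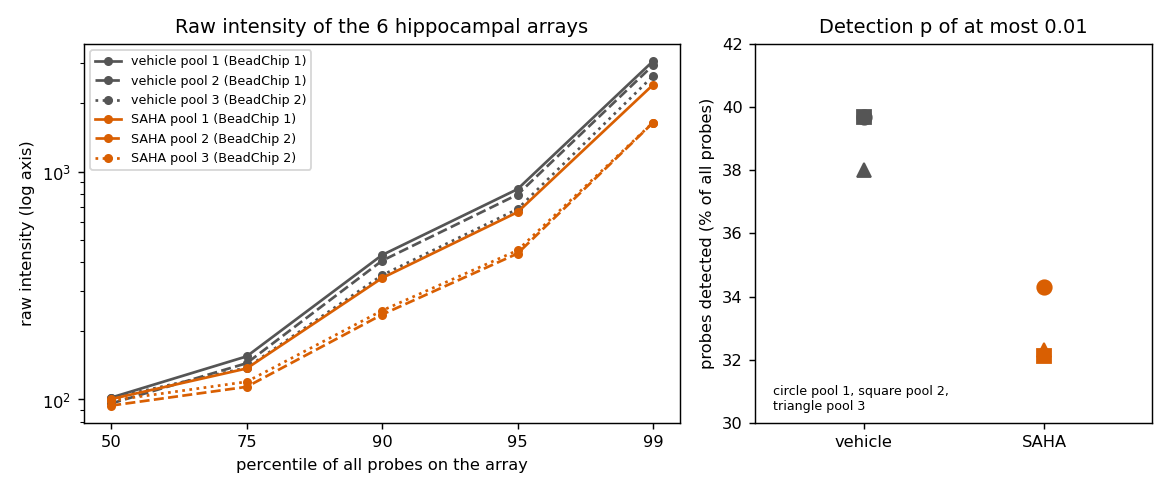
Left, raw intensity (log axis) at rising percentiles of all probes for each of the 6 hippocampal arrays. Right, the percentage of all probes with a detection p of at most 0.01. SAHA pools 2 and 3 run below the other arrays at the upper percentiles, and all SAHA arrays detect fewer probes (32.1% to 34.3%) than all vehicle arrays (38.0% to 39.7%).

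By limma, 2573 of the 22275 probes (11.6%) passed an unadjusted p of 0.05. With a change of at least 1.2-fold as well, 454 probes (2.04%) were higher and 542 (2.43%) were lower after SAHA, and these are the probes called here. None passed a Benjamini-Hochberg adjusted p of 0.05 over all probes, the lowest being 0.371. This fit also held the Cpd-60 HIP arrays, so their spread enters every p. With only the 6 SAHA and vehicle arrays, 3300 probes passed p 0.05 and none after adjustment. The share past p 0.05 grew with signal, from 6.87% in the dimmest of the 5 bins to 20.2% in the brightest. A call therefore describes these 6 arrays, and each was followed through the fits that take the BeadChip and the brightness into account.

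Of the 996 called probes, 835 had 3 SAHA pools that did not overlap the 3 vehicle pools, 375 higher and 460 lower. Among all tested probes, 8.7% had SAHA pools above and 11.1% below all vehicle pools. Of those called and not overlapping, 804 also passed p 0.05 in the same direction once the BeadChip entered the fit as a block. The brightness of the array was then entered as a covariate over the 27 vehicle, SAHA and Cpd-60 arrays of all 3 regions, and 247 probes, 93 higher (0.418% of those tested) and 154 lower (0.691%), still passed. They stand for 201 named genes, and the genes of these 247 probes are called the genes that passed every fit. Pools that did not overlap were a condition for this group. Where that is described for 1 of its genes below, it adds no support. In the fit with SAHA pool 1 alone against the vehicle pools, 100 of the 247 passed p 0.05 in the same direction, and 108 changed at least 1.2-fold on each BeadChip taken by itself. The covariate was harder to pass when fitted on the 9 HIP arrays alone: 106 of the 996 called probes passed p 0.05 there, and 937 kept their direction. Of the 24 largest changes that passed every fit, described next, 8 kept the call with SAHA pool 1 alone (Rab1, Adgrl1, Noc4l, Gatb, Acsl4, Immt, Tst and Hba-a1). The other 16 changed there by 0.18 (mt-Nd5) to 0.44 (Smarcd2) and by -0.20 (Wipf3) to -0.44 (Gltp). Their direction could not reverse there, since pools that did not overlap were a condition of the choice. With the covariate over the 9 HIP arrays, 4 of the 24 kept the call (Acsl4, Immt, Mal and Hba-a1).

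The genes with the largest falls that passed every fit included several that handle the lipids of myelin. Gltp encodes glycolipid transfer protein, which carries glycosphingolipids between membranes. Gltp measured 9.08, 9.16 and 8.81 in vehicle pools 1, 2 and 3, and 8.57, 8.44 and 8.14 in the SAHA pools. Its SAHA pools all lay below its vehicle pools, a change of -0.63 ± 0.14 (SE, limma adjusted p = 0.371), with -0.55 on the first BeadChip and -0.52 on the second. Fa2h encodes the fatty acid hydroxylase that makes the hydroxylated sphingolipids of the myelin sheath. Fa2h measured 9.27, 9.32 and 8.93 in the vehicle pools and 8.89, 8.37 and 8.39 in the SAHA pools, so SAHA pool 1 came close to vehicle pool 3. Its change was -0.63 ± 0.16 and became -0.44 with the brightness covariate, where it still passed p 0.05, but it was -0.28 with the covariate over the 9 HIP arrays and -0.29 in SAHA pool 1 alone, and did not pass in either. Mal, a membrane protein of myelin that gathers glycosphingolipids, measured 9.59, 9.89 and 9.89 in the vehicle pools and 9.40, 9.16 and 9.19 in the SAHA pools. The Mal groups did not overlap, and its change of -0.54 ± 0.13 was -0.34 on the first BeadChip and -0.71 on the second.

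The 250 bases upstream of the annotated starts of Gltp and Mal, which fell, and of Gng2, which rose, are shown so that the regions these transcripts start from can be seen side by side. They were taken from RefSeq (GRCm38.p6), where 3 of 4 genes looked up had an entry, and lie on the minus strand at chr5:114690936-114691185 (Gltp), chr2:127656696-127656945 (Mal) and chr14:19976694-19976943 (Gng2). Capitals mark GGGCGG, the GC box, and CCAAT on either strand, so that ATTGG is a CCAAT read on the other strand.
Gltp: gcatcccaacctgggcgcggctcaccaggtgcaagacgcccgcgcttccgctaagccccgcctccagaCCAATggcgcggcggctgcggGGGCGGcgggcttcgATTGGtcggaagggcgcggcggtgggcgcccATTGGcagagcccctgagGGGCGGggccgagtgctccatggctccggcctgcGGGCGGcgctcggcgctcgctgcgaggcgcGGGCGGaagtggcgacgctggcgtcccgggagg
Mal: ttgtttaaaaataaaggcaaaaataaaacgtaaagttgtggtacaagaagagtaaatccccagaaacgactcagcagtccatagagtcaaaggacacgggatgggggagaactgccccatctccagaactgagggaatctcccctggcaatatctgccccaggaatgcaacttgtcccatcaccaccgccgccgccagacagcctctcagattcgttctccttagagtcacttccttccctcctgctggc
Gng2: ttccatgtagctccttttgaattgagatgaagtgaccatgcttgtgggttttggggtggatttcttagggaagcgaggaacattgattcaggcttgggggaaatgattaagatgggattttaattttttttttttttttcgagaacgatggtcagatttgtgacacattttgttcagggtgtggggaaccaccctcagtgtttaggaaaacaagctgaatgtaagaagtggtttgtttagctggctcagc
The Gltp window held GGGCGG 4 times and CCAAT 3 times, without overlap, and the Mal and Gng2 windows held neither. None of the 3 windows held TATAAA or the SOX-type words ACAAAG and ACAATG, which share their first 4 letters. Of all 32851 RefSeq windows of this length, 32.7% held GGGCGG, 33.8% CCAAT, 12.4% TATAAA, 16.5% ACAAAG and 10.7% ACAATG on either strand. The arrays measured transcripts and not these regions, so the matches are descriptions only.

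Other large falls that passed every fit belonged to different functions. Immt encodes mitofilin, which shapes the cristae of mitochondria. Immt measured 10.75, 10.69 and 10.42 in the vehicle pools and 10.15, 10.11 and 9.97 in the SAHA pools, with every SAHA pool below every vehicle pool. Its change was -0.54 ± 0.10, and its call held in all 22 alternative settings, with values from -0.64 to -0.37. Tst (thiosulfate sulfurtransferase, a mitochondrial enzyme) fell by 0.53, Man1b1 (an ER mannosidase) by 0.56, Wipf3 (an actin-regulating WASP-binding protein) by 0.53 and Sez6l (a neuronal membrane protein) by 0.51. The group also held regulators: Nf1, which encodes the Ras inhibitor neurofibromin (-0.55 ± 0.13), Jdp2, a repressor of AP-1 target genes (-0.54 ± 0.14), and Dtx1, which acts in Notch signaling (-0.51 ± 0.13). Hba-a1, an alpha globin of red cells, measured 11.82, 11.83 and 11.73 in the vehicle pools and 10.75, 11.53 and 11.52 in the SAHA pools. The bright SAHA pool 1 was the lowest for Hba-a1, and without it the change was -0.27 in place of -0.53. The call of Man1b1 was lost without SAHA pool 3, where its change was -0.41.

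The largest rise that passed every fit was Rab1, a small GTPase of ER-to-Golgi traffic. Rab1 measured 7.37, 7.59 and 7.61 in the vehicle pools and 7.94, 8.42 and 8.49 in the SAHA pools, so the lowest SAHA pool was above the highest vehicle pool. The change was 0.76 ± 0.14 (SE, limma adjusted p = 0.371), and it was 0.41 in SAHA pool 1 alone and 0.53 with the brightness covariate. Gng2, a gamma subunit of heterotrimeric G proteins, measured 8.34, 8.50 and 9.01 in the vehicle pools and 9.03, 9.36 and 9.54 in the SAHA pools. Vehicle pool 3 and SAHA pool 1 of Gng2 nearly met, and its change was 0.70 ± 0.18. Acsl4, which activates arachidonic acid, measured 7.19, 7.30 and 7.34 in the vehicle pools and 7.81, 7.60 and 7.68 in the SAHA pools. Here SAHA pool 1 was the highest of the group, and the change of 0.42 ± 0.08 held its call in all 22 alternatives, with values from 0.35 to 0.73. As for Immt, some of these alternatives were conditions of the choice.

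The remaining rises named by the rule ranged from 0.42 to 0.63. They were mt-Nd5, a mitochondrial subunit of complex I, Adgrl1, the latrophilin 1 receptor, Smarcd2, a subunit of the SWI/SNF chromatin remodeler, Rnf112, a neuronal zinc finger protein, and Noc4l, a ribosome biogenesis factor. Zswim1, Rsph3a, the kinase Araf and Gatb, which acts in mitochondrial translation, completed the group. Adgrl1 measured 8.64, 8.76 and 8.80 in the vehicle pools and 9.23, 9.17 and 9.38 in the SAHA pools, with a like change on each BeadChip (0.53 and 0.48). The calls of mt-Nd5 and Rnf112 were lost without SAHA pool 3, with changes of 0.36 in each.

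**Figure D2:**
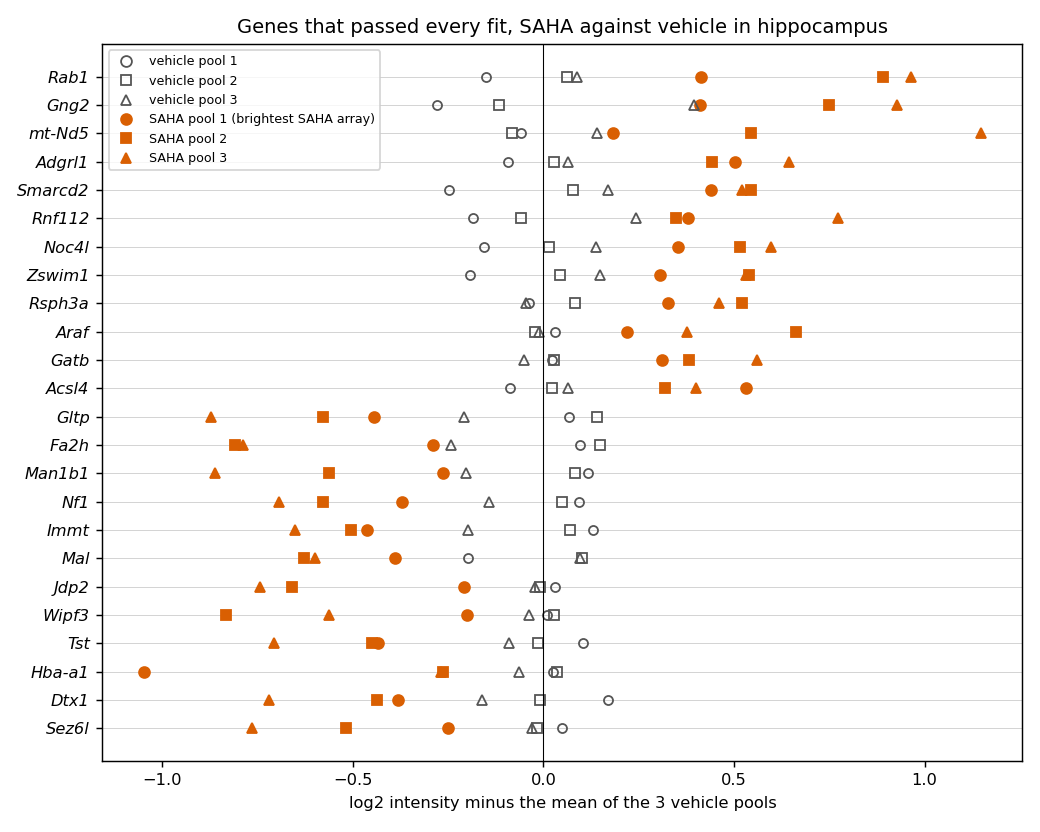
Log2 intensity of each pool minus the mean of the 3 vehicle pools, for the 12 largest rises and 12 largest falls that passed every fit (open grey, vehicle; orange, SAHA; circle, square and triangle, pools 1, 2 and 3). SAHA pool 1, the brightest SAHA array, usually lies nearest to the vehicle pools, with Acsl4 and Hba-a1 among the exceptions.

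The largest changes of all did not pass every fit. Nell2, a secreted neuronal glycoprotein, measured 9.71, 9.28 and 8.29 in the vehicle pools and 8.20, 7.86 and 7.76 in the SAHA pools. The vehicle pools of Nell2 were widely spread and vehicle pool 3 came close to SAHA pool 1, and its change of -1.15 ± 0.51 lost the call when any SAHA pool or vehicle pool 1 or 2 was left out (-1.28 to -0.85). Lbh, a transcription cofactor, fell by 0.98, Mt3, the brain metallothionein that binds zinc, by 0.90, Psme3, a proteasome activator, by 0.89, and Ap2a1, a subunit of the AP-2 endocytic adaptor, by 0.88. With the brightness covariate these were -0.50, -0.66, -0.51 and -0.59, and none of the 4 passed p 0.05. Ap2a1 also lost the call without vehicle pool 1 (-0.67), SAHA pool 2 (-0.88) or SAHA pool 3 (-0.84). Mt3 measured 11.75, 11.53 and 11.36 in the vehicle pools and 10.85, 10.53 and 10.54 in the SAHA pools, with no overlap and -0.79 and -0.82 on the BeadChips taken separately. Actb, beta-actin, had the largest rise, 0.84 ± 0.25, and Cbx6, a Polycomb protein, rose by 0.59. With the brightness covariate these were 0.39 and 0.29, and neither passed p 0.05.

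Genes with several probes allowed each call to be read on a second part of the transcript. Among genes with more than 1 tested probe, the lead probe was the called probe with the largest change whose pools did not overlap. For 202 genes with a fall, 61 of 339 other probes (18%) passed p 0.05 as lower and 3 as higher, where 6.47% of all tested probes were lower. For 177 genes with a rise, 16 of 297 other probes (5.39%) passed as higher and 16 as lower, where 5.08% of all probes were higher. Among genes that passed every fit, 17 of 114 other probes (14.9%) followed the falls and 4 of 80 (5%) followed the rises. Restricting the other probes to those detected on all 6 arrays gave 49 of 246 (19.9%) for the falls and 14 of 220 (6.36%) for the rises, where 7.37% and 7.07% of all such probes passed. Falls were thus seen on other probes of the same gene more often than the background share, whereas rises were seen about as often as the background share. Probes of a gene can read different isoforms, and what sets the rises apart was not tested.

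Single genes showed both patterns. The other Rab1 probe changed by 0.04 and the other Gng2 probe by 0.06. The 5 Actb probes changed by 0.84, 0.80, 0.53, 0.12 and -0.22, the last 2 being among the 3 brightest. A second Adgrl1 probe moved the other way, by -0.53, and just missed p 0.05. By contrast, the 4 Nell2 probes changed by -1.15, -0.74, -0.41 and -0.24, both Ap2a1 probes passed p 0.05 as lower (-0.88 and -0.69), and the second Lbh probe changed by -0.45. The other Mal probes changed by -0.13 and 0.11, so the fall of Mal rests on 1 of 3 probes. Gltp, Fa2h, Immt and Mt3 were tested on 1 probe each.

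**Figure D3:**
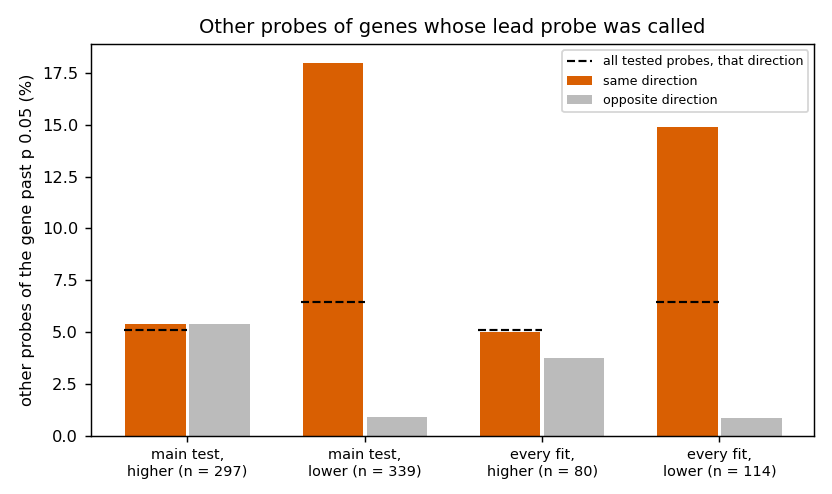
Percentage of the other tested probes of each gene that passed limma p 0.05 in the same (orange) or opposite (grey) direction as the gene's called lead probe, for calls of the main test and of every fit. Dashed lines give the percentage of all tested probes that passed in that direction. Orange bars stand above the dashed line for falls (18% and 14.9% against 6.47%) and at it for rises (5.39% and 5% against 5.08%).

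Gene lists were read with 1 probe per gene, its brightest tested one, and no list was tested as a set. Over all 15154 genes, 5.68% passed p 0.05 as higher and 6.43% as lower, and the median change was -0.0037. These shares cover genes of all signal levels, and no list was matched for signal. In either direction together, 6.87% of probes passed in the dimmest of the 5 bins and 20.2% in the brightest. A list of bright genes can therefore exceed the share of all genes through its signal alone. The medians of the 42 lists ranged from -0.20 to 0.08.

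Of the 42 lists, oligodendrocyte genes had the largest share past p 0.05 in 1 direction. Of 21 tested, 8 (38.1%, where 6.43% of all genes were lower) passed p 0.05 as lower and none as higher, 17 changed below 0, and the median was -0.17. The change was at least 1.2-fold for 7 of the 8 (2.59% of all genes were called lower and 2.45% higher), and 9 of the 21 had SAHA pools below all vehicle pools (11% of all genes, with 9.87% above). Of the list, only Fa2h and Mal passed every fit (0.772% of all genes). Beside them, the 8 lower genes of the main fit included Trf (the iron carrier transferrin, -0.44 ± 0.11), Mobp (a protein of compact myelin, -0.41 ± 0.15) and Qdpr (dihydropteridine reductase, -0.35 ± 0.08). Mbp (myelin basic protein, -0.29 ± 0.09) and Mog (a protein of the outer myelin surface, -0.26 ± 0.09) were also among the 8. Trf measured 10.68, 10.90 and 10.89 in the vehicle pools and 10.64, 10.21 and 10.32 in the SAHA pools. Qdpr measured 10.42, 10.33 and 10.38 in the vehicle pools and 9.83, 10.12 and 10.15 in the SAHA pools. Trf was lowest in the dim pools 2 and 3, and Qdpr was lowest in the bright pool 1. Lineage and progenitor genes stayed near 0: Olig1 changed by 0.02, Olig2 by -0.07, Sox10 by 0.003, Pdgfra by -0.05 and Cspg4 by 0.06, none past p 0.05.

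The list's median was below 0 in every SAHA pool, while the number of its genes past p 0.05 depended on the fit. The median was -0.12 in SAHA pool 1, -0.25 in pool 2 and -0.15 in pool 3, against -0.08, 0.07 and 0.04 in vehicle pools 1, 2 and 3, so SAHA pool 1 lay near vehicle pool 1. It was -0.14 on the first BeadChip and -0.15 on the second, -0.16 in the fit blocked by BeadChip and -0.12 with the brightness covariate. The number past p 0.05 as lower was 9 with the BeadChip block (5.93% of all genes in that fit), 3 with the brightness covariate (Fa2h, Mal and Mog, where 3.46% of all genes were lower and 2.58% higher) and 2 with SAHA pool 1 alone (Qdpr and Cnp, where 2.38% of all genes were lower). Leaving out any 1 of the 9 arrays gave 6 to 9 lower and none higher. The summed normalized intensity of the 21 genes was 36341, 40112 and 36458 in the vehicle pools and 34980, 30422 and 32223 in the SAHA pools. Of 16 further probes of these genes, 13 changed below 0, 4 passed p 0.05 as lower (second probes of Cnp, Mobp, Mog and Mbp) and 1 as higher (another Mbp probe, 0.21). In bulk tissue, fewer oligodendrocytes and less of these RNAs per cell cannot be told apart.

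The same genes did not fall in the other regions. In the PFC, 6 of 20 tested passed p 0.05 as higher and none as lower, with a median of 0.20, where 1.01% of all genes were higher and 0.73% lower. In the NAc, none of 21 passed in either direction (0.524% of all genes were higher and 0.974% lower) and the median was 0.05. The difference between the SAHA change in the HIP and the average of its PFC and NAc changes, fitted over the 27 arrays with a random block for each pool of mice, passed p 0.05 as lower for 6 of 20 genes and as higher for none, against 3.8% and 3.77% of all genes. For Mal this difference was -0.75 ± 0.20 (SE), and for Fa2h it was -0.75 ± 0.25. Both passed p 0.05 and neither passed after adjustment over all probes (limma adjusted p = 0.692). Both genes were named, and the list was singled out, for their HIP changes. That choice favours such differences, so the count of 6 of 20 adds no separate support. Brightness also varied in the other regions, with 95th percentiles of 519 to 908 in the PFC and 350 to 1080 in the NAc. In the HIP, against the same vehicle arrays, the list's median was -0.04 after Cpd-60, with 1 gene higher and 4 lower (2.81% and 3.62% of all genes), and -0.16 after CI-994, with 1 higher and 2 lower (1.5% and 1.6%).

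**Figure D4:**
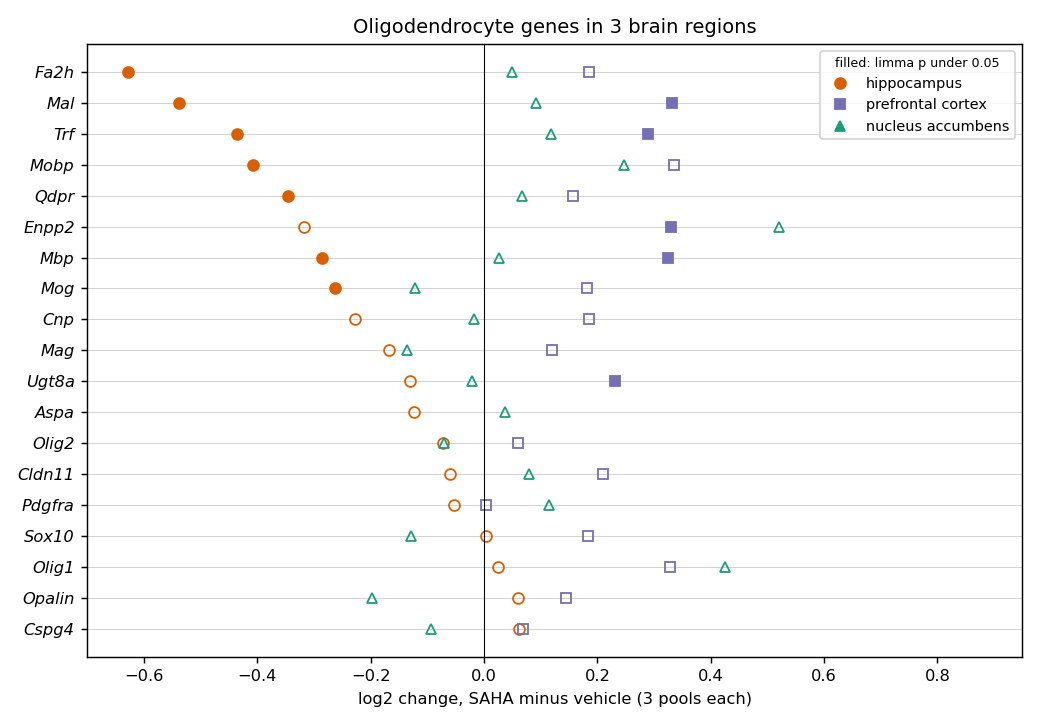
Log2 change after SAHA (mean of 3 pools minus mean of 3 vehicle pools) of 19 of the 21 tested oligodendrocyte genes in hippocampus (circles), prefrontal cortex (squares) and nucleus accumbens (triangles), filled where limma p was under 0.05. In hippocampus 7 of the 19 genes shown are filled on the lower side, and in prefrontal cortex 5 of the 18 shown are filled on the higher side.

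Rab GTPases and their regulators, which direct vesicle traffic, leaned the other way. Of 46 tested, 8 (17.4%, where 5.68% of all genes were higher) passed p 0.05 as higher, and the median was 0.08. Only Rab31 (-0.24) passed as lower (2.17%, against 6.43% of all genes). Rab1 and Rab2a passed every fit (0.442% of all genes). Others past p 0.05 as higher were Rab5a of early endosomes (0.20), Rab8a (0.32), Rab14 (0.25), Rab26 (0.33) and Rab33a (0.15). Rab2a, which acts between ER and Golgi, measured 11.70, 11.71 and 11.88 in the vehicle pools and 12.10, 12.02 and 12.03 in the SAHA pools. All 3 SAHA pools of Rab2a were alike and above the vehicle pools, and it passed p 0.05 in all 22 alternatives (0.26 to 0.35). The list's median was 0.06, 0.09 and 0.10 in SAHA pools 1, 2 and 3, and 0.03 with the brightness covariate, where 3 passed as higher, against 7 with the BeadChip block (5.36% of all genes) and 4 in SAHA pool 1 alone (2.45%). The count was fragile: it was 2 without vehicle pool 1, 4 without vehicle pool 2 and 5 without SAHA pool 3. Of 33 further probes, 4 passed as higher and 1, of Rab1b, as lower, with a median of -0.02.

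Genes of protein quality control had shares as higher above that of all genes, not matched for signal, in the main fit. The counts depended on single pools. Of 26 proteasome subunit genes, 4 (15.4%) passed p 0.05 as higher (Psmd13 0.41, Psmd4 0.34, Psmc4 0.33 and Psma5 0.21) and none as lower, with a median of 0.06, where 5.68% of all genes were higher. None passed with the brightness covariate, in SAHA pool 1 alone or without vehicle pool 1, 1 passed without vehicle pool 2 or without SAHA pool 3, and 2 without SAHA pool 2. The 17 further probes of these genes had a median of -0.06, 15 changed below 0, and 2 passed p 0.05 as lower and 0 as higher. Of 42 chaperone genes, 6 (14.3%) passed as higher, including Cct4 of the CCT chaperonin (0.32), the Hsp70 cochaperone Bag1 (0.40) and the small heat shock protein Hspb8 (0.28), and 3 (7.14%) as lower, including Hsp90ab1 (-0.22). Cct4 and Hspb8 passed with the brightness covariate as well (0.29 and 0.32), and 2 chaperone genes passed as higher in SAHA pool 1 alone. The higher count was 2 without vehicle pool 1 or without SAHA pool 3, 3 without vehicle pool 2 and 4 without SAHA pool 2.

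Neuronal lists held genes past p 0.05 in both directions. Of 47 genes for glutamate receptors and postsynaptic scaffolds, 3 passed as higher (6.38%, near the 5.68% of all genes) and 8 as lower (17%, where 6.43% of all genes were lower). The AMPA receptor subunit Gria1 changed by 0.26 ± 0.09, and the scaffold genes Shank3, Dlgap3 and Dlgap2 by -0.28, -0.26 and -0.17. Gria1 measured 11.36, 11.37 and 11.47 in the vehicle pools and 11.55, 11.76 and 11.66 in the SAHA pools, without overlap. None of the 47 passed in SAHA pool 1 alone. With the brightness covariate 1 passed as lower, and without vehicle pool 1 the count was 1 as well, while without SAHA pool 2 or 3 it was 2. Of 52 synaptic vesicle and release genes, 6 (11.5%) passed as higher and 8 (15.4%) as lower. These counts fell to 2 and 2 without SAHA pool 3 and to 1 and 3 in SAHA pool 1 alone. Syt7, a calcium sensor of slow release, measured 9.11, 9.11 and 9.15 in the vehicle pools and 8.90, 8.84 and 8.81 in the SAHA pools. The spread within each Syt7 group was under 0.1, the change was -0.28 ± 0.06, and it passed p 0.05 in all 22 alternatives (-0.38 to -0.23). Sh3gl1 and Napg changed by 0.29 and 0.36 and the proton pump subunit Atp6v0a1 by -0.50, and these 3 did not pass with the brightness covariate.

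Among 67 genes of calcium and kinase signaling, 5 (7.46%) passed as higher, including calmodulin genes Calm2 (0.28) and Calm3 (0.26). As lower, 7 (10.4%) passed, including Camkk1 (-0.33) and Prkcd (-0.27). Over all genes, 5.68% were higher and 6.43% lower. None of the 67 passed with the brightness covariate, and 1 passed in each direction in SAHA pool 1 alone. Of 55 genes for coats and SNAREs of the secretory pathway, 3 (5.45%, near the share of all genes) passed as higher and 6 (10.9%) as lower. The clathrin adaptor genes Ap2b1 (-0.34 ± 0.09) and Ap2s1 (-0.24 ± 0.08) fell beside Ap2a1, and both passed with the brightness covariate too (-0.31 and -0.28), whereas Arf5 (-0.43) and Cltb (-0.24) did not. Of 72 genes for actin, tubulin and their regulators, 6 (8.33%) passed as higher and 8 (11.1%) as lower. Without vehicle pool 1 none of the actin list passed as higher, none of the coat and SNARE list did either, and without SAHA pool 3 the calcium list had 1 higher and 4 lower and the coat and SNARE list 2 and 2. Actr1b, a dynactin subunit, measured 9.70, 9.69 and 9.57 in the vehicle pools and 9.45, 9.21 and 9.24 in the SAHA pools. Actr1b and the actin-binding peptide gene Tmsb4x passed with the brightness covariate (-0.37 and -0.27), whereas Actn4 (-0.30) and Limk1 (-0.26) did not.

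In the main fit, 5.68% of all genes passed as higher and 6.43% as lower. Of 67 oxidative phosphorylation genes, 5 (7.46%) passed there as higher and 9 (13.4%) as lower, with a median of -0.07. With the brightness covariate 0 passed as higher and 7 (10.4%) as lower, where 3.46% of all genes were lower, and in SAHA pool 1 alone 3 and 6 passed. Leaving out 1 pool gave 6 (without vehicle pool 1) to 14 (without Cpd-60 pool 3) lower. The complex I subunit genes Ndufs8, Ndufa13 and Ndufa11 changed by -0.25, -0.23 and -0.28 and the complex III gene Uqcrb by 0.29. Ndufa11 measured 10.64, 10.74 and 10.62 in the vehicle pools and 10.27, 10.53 and 10.36 in the SAHA pools, and it passed p 0.05 in all 22 alternatives (-0.42 to -0.22). Of 57 cytosolic ribosomal protein genes, 6 (10.5%) passed as higher, including Rpl24 (0.29 ± 0.06), and 7 (12.3%) as lower, including Rps27a (-0.28 ± 0.07), Rpl28 (-0.33) and Rpl31 (-0.33). Rpl24 and Rps27a passed with the brightness covariate (0.22 and -0.26), and 2 genes of the list passed as higher and 1 as lower in SAHA pool 1 alone. The lower count was 3 without SAHA pool 3 and 4 without vehicle pool 1, and the higher count was 3 without vehicle pool 1, vehicle pool 2 or SAHA pool 2. Ribosomal protein genes have many processed copies in the genome, so their probe signals may be shared.

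Of 16 HDAC and sirtuin genes none passed as higher and 1 as lower (6.25%, where 6.43% of all genes were lower), and the median was 0.009. With the brightness covariate 1 passed as higher (6.25%) and 2 as lower (12.5%), where 2.58% and 3.46% of all genes did. Hdac11 (-0.36) was among the lower genes of that fit. The lower gene of the main fit was Sirt2, a tubulin and histone deacetylase abundant in oligodendrocytes, which is not a target of SAHA. Sirt2 measured 8.83, 9.21 and 8.85 in the vehicle pools and 8.63, 8.57 and 8.39 in the SAHA pools. The groups did not overlap, the change was -0.43 ± 0.13, and Sirt2 passed every fit (-0.40 with the brightness covariate). Of 20 genes often raised by HDAC inhibitors in cultured cells, none passed as higher (5.68% of all genes) and 1 (5%) as lower. Of 25 histone genes none passed as higher and 3 (12%) as lower. Of 29 immediate early genes, which neurons switch on with activity, 4 (13.8%) passed as higher, including Gadd45g (0.27) and Jun (0.27). As lower, 4 (13.8%) passed, including Jund (-0.56) and the neurotrophin gene Bdnf (-0.23). With the brightness covariate 0 immediate early genes passed as higher and 2 (6.9%) as lower. Gadd45g (0.13), Jun (0.19) and Jund (-0.25) did not pass in that fit, whereas Bdnf (-0.25) did. Bdnf measured 8.85, 8.91 and 8.79 in the vehicle pools and 8.80, 8.59 and 8.46 in the SAHA pools. SAHA pool 1 lay within the vehicle range for Bdnf, and its call was lost without vehicle pool 2, SAHA pool 2 or SAHA pool 3.

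Markers of other cells were read as whole lists. Astrocyte genes did not move together: of 19, Slc1a3 (a glutamate transporter, 0.32) and Plpp3 (0.33) passed as higher and Gfap, the astrocyte intermediate filament, as lower. These were 10.5% and 5.26% of the list, where 5.68% of all genes were higher and 6.43% lower. Gfap measured 10.79, 10.68 and 10.19 in the vehicle pools and 10.04, 9.67 and 9.50 in the SAHA pools. Gfap changed by -0.81 ± 0.22 without overlap and by -0.54 with the brightness covariate, where it did not pass, and its change in the HIP minus that in the other regions was -1.24 ± 0.37 (limma adjusted p = 0.692). Of 17 microglial genes, none passed as higher and 2 (11.8%) as lower. Choroid plexus and ependymal genes split by BeadChip rather than by group. On the first BeadChip, the median of 13 genes was 0.21 and 0.17 in vehicle pools 1 and 2 and 0.26 in SAHA pool 1. On the second, it was -0.33 in vehicle pool 3 and -0.30 and -0.43 in SAHA pools 2 and 3. The median of 4 blood genes was -0.34, -0.13 and -0.14 in the SAHA pools. Their part in the results above was not tested.

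**Figure D5:**
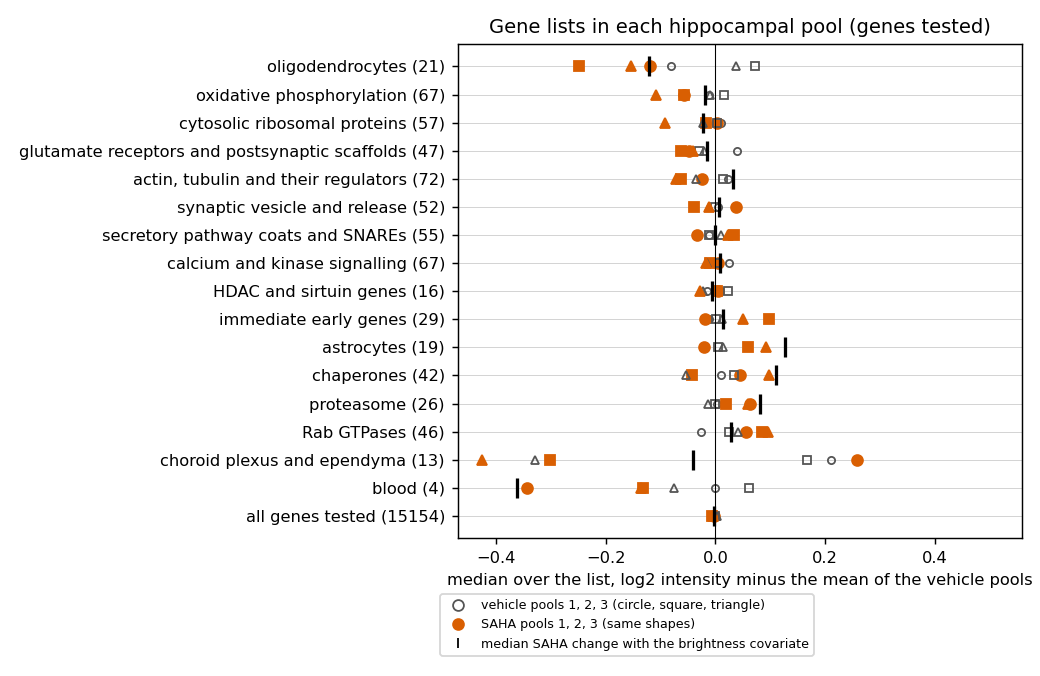
Median over each gene list (number of genes tested in parentheses) of the log2 intensity of a pool minus the mean of the vehicle pools, for vehicle (grey) and SAHA (orange) pools 1, 2 and 3 (circle, square, triangle). Black ticks give the median change with the brightness covariate. The oligodendrocyte list lies below 0 in all SAHA pools (-0.12, -0.25 and -0.15). The choroid plexus list is high in the pools of the first BeadChip (vehicle 1 and 2, SAHA 1) and low in those of the second.

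The probes that passed every fit were chosen by their change in the HIP, so smaller changes elsewhere would follow from that choice alone. Their changes in the other regions are given here as a description. Of 93 higher probes, 88 were tested in all regions, and 0 passed p 0.05 as higher in either the PFC or the NAc, while 1 in the PFC and 2 in the NAc passed as lower. Of 154 lower probes, 150 were tested in all regions, of which 0 passed as lower in the PFC and 4 in the NAc, while 4 in the PFC and 1 in the NAc passed as higher. Of all 18610 probes tested in every region, 0.94% were higher and 0.763% lower in the PFC, and 0.5% were higher and 0.999% lower in the NAc. The median change of these 150 was -0.32 in the HIP, -0.008 in the PFC and -0.01 in the NAc. Over all probes tested in every region, 1305 of 18610 (7.01%) passed p 0.05 for a different SAHA effect in the HIP, and none after adjustment. Rab1 differed by 0.80 ± 0.21 and Gltp by -0.73 ± 0.19, both past p 0.05 unadjusted. Both were picked for their large HIP change, which favours such a difference. The Hba-a1 change was -0.53 in HIP, -0.46 in PFC and -0.72 in NAc. The HIP change of Hba-a1 minus the mean of its PFC and NAc changes was 0.06 ± 0.30 (SE). PFC and NAc were not compared with each other.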

How the data were processed

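The authors hybridized RNA pooled from 2 mice to each Illumina array and deposited a raw probe intensity and a detection p-value per probe, exported without normalization as deposited. The hippocampal arrays lay on 2 BeadChips. The 27 vehicle, SAHA and Cpd-60 arrays were quantile normalized (intensities below 1 set to 1, then log2), after the study's own sequence of steps. The presence threshold of the methods was taken to mean detection p values up to 0.2 on 3 of 3 arrays of a group. limma 3.58.1 (R 4.3.3) was fitted with lmFit and eBayes to the 9 vehicle, SAHA and Cpd-60 HIP arrays, and every p in the text that is not named exact comes from it. Brightness is log2 of an array's 95th percentile of raw intensity. A call needs an unadjusted p under 0.05 and a change of 1.2-fold. Arrays have no depth, and precision is limited by their number. Of 30869 symbols, 21922 matched a current RefSeq symbol or synonym.

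The 12 largest rises and falls that passed every fit, the 5 largest changes each way whatever the fits, and up to 4 members per list were named by rule, and further list members and second probes were named after their values were seen. The members and lists were chosen with earlier results of these data known. The code was tested on simulated data. Alternatives were 2 other normalizations (neqc with offset 16, and cyclic loess), all 36 arrays, 3 detection filters, the BeadChip or pool number as a block, brightness covariates, fewer arrays, Tukey's HSD as the methods name it, and leaving out each pool. Same-numbered pools of different treatments correlated in their deviations at -0.177 to 0.477, so numbers were not taken to pair arrays. Values of some single genes are not reported here, and counts and medians include them.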

Additional observations from a re-analysis of the deposited data

How the results depend on the processing

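None of the 80 genes followed through the 22 alternatives reversed. Among the oligodendrocyte genes near 0, none past p 0.05, Sox10 (-0.15), Pdgfra (0.01) and Cspg4 (-0.02) changed sign with the brightness covariate over 27 arrays. Probes past p 0.05 (2573) numbered 1553 when detected at p 0.01 on all 6 arrays, 3987 with no filter, 1060 and 1335 with the brightness covariate over 9 and 27 arrays, 1122 with SAHA pool 1 alone and 1028 by Tukey's HSD. Leaving out 1 pool gave 1374 (without vehicle pool 1) to 3476 (without Cpd-60 pool 3). Calls higher (454) and lower (542) were 1053 and 1459 with neqc, 280 and 357 with the BeadChip block, 174 and 278 with the brightness covariate over 27 arrays, and 100 and 146 by Tukey's HSD, and 302 were lower with SAHA pool 1 alone. Leaving out 1 pool gave 245 (without vehicle pool 1) to 784 (without vehicle pool 3) higher and 321 (without vehicle pool 1) to 896 (without SAHA pool 1) lower. Oligodendrocyte genes past p 0.05 as lower (8) were 4 and 3 with the brightness covariate over 9 and 27 arrays, 2 with SAHA pool 1 alone and 3 by Tukey's HSD, and 6 to 9 with 1 pool left out. Rab genes as higher (8) were 5 with all 36 arrays, 2 and 3 with the covariate over 9 and 27 arrays, 4 with SAHA pool 1 alone, 3 by Tukey's HSD, and 2 (without vehicle pool 1) to 11 (without SAHA pool 1) with 1 pool left out. Probes with a regional difference (1305) were 710 with the brightness covariate and 470 (without SAHA pool 3) to 2230 (without SAHA pool 1) with 1 pool left out. With the pool number as a replicate block, 28 probes passed an adjusted p of 0.05 in place of 0, and 5 of 9 arrays correlated best with their own number. The causes were not tested.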
